A study of Mus musculus with 12 samples.

Results

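Myc and 45 genes of ribosome biogenesis were followed through 12 RNA-seq libraries of naive mouse CD4 T cells. They are a named list taken by gene symbol, and all 46 were among the 10073 genes listed by the authors and among the 10021 that passed a minimum mean of 0.5 RPKM over the libraries. RPKM counts reads per kilobase of a gene and per M reads of the library (M for mega), so levels of different genes can be set side by side, and each value is a share of a library rather than an amount per cell.

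Cells were taken from spleen plus lymph nodes of 3 untreated mice and sorted as CD4 positive, negative for the Foxp3-RFP reporter and low for CD44. All mice carried Tg(Nr4a1-EGFP)GY139Gsat, a transgene in which regulatory sequence of Nr4a1 (the gene for Nur77) drives GFP, together with the Foxp3tm1Flv reporter allele, on a C57/BL6 background. No age is given in the sources used here. Each mouse gave, by label, 1 library of each of 4 populations. By label, A and B are positive for surface Ly6C, A with low GFP and B with an intermediate level. C and D lack Ly6C by label, C with intermediate and D with high GFP. Nur77-GFP is a reporter of recent T cell receptor signalling. Libraries are named by population letter and mouse number, such as A1, and the letters stand for the labels.

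Ribosome biogenesis starts in the nucleolus, where RNA polymerase I copies the ribosomal DNA into a long precursor RNA. Small nucleolar ribonucleoproteins (snoRNPs) guide chemical modification and cutting of that precursor: the box C/D class directs 2′-O-methylation and the box H/ACA class directs pseudouridylation. Large assemblies of further factors then build the 40S and 60S subunits. Myc is a transcription factor that binds DNA with Max, often at the E-box CACGTG. It is known to raise the genes of this pathway when T cells are activated, and naive T cells are resting cells with low demand for new ribosomes.

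The promoter windows of 40 of the 46 members were found by gene identifier in RefSeq sequence of build GRCm38.p6, and each window ran from 250 bases before to 50 bases after a start site. CACGTG reads the same on both strands, so both were searched at once. It stood in the windows of 11 of the 40 members (27.5%), against 12.4% of the tested genes with a window and 8.09% of all genes in the sequence set. The 11 sites are shown because they are where these promoters carry the letters that Myc with Max is known to bind. Each line gives 30 bases on the gene's own strand, 5′ to 3′, with CACGTG in capitals.
Grwd1: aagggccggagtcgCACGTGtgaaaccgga
Imp4: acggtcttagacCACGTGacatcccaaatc
Ltv1: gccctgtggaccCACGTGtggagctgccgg
Mdn1: caacgtgaattccttcacCACGTGtgtgtc
Mybbp1a: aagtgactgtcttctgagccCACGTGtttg
Nop2: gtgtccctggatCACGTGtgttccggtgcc
Pes1: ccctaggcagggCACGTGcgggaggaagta
Tsr1: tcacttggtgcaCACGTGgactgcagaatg
Utp18: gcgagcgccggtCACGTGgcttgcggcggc
Utp20: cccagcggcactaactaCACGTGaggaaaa
Wdr43: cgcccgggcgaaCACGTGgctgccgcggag

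The sites lay on both sides of the start. The motif's first base was 121 bases before the start in Imp4 (chr1:34439696-34439725, plus strand), 60 before in Nop2 (chr6:125131811-125131840, plus strand) and 20 before in Utp18 (chr11:93885769-93885798, minus strand). In the other 8 it lay after the start, at base 3 in Pes1 (chr11:3963965-3963994, plus), 18 in Wdr43 (chr17:71616220-71616249, plus), 25 in Tsr1 (chr11:74898092-74898121, plus) and 29 in Ltv1 (chr10:13193092-13193121, minus). It lay at base 35 in Grwd1 (chr7:45830740-45830769, minus), 38 in Utp20 (chr10:88826765-88826794, minus), 39 in Mdn1 (chr4:32657139-32657168, plus) and 41 in Mybbp1a (chr11:72441347-72441376, plus). In the 50 bases after the start CACGTG was held by 20% of the members with a window, against 2.03% of the tested genes, while in the 250 bases before the start the shares were 7.5% and 10.5%. A second motif, CCGGAAG on either strand, which ETS factors are known to bind, stood in 14 of the 40 windows (35%) against 23.3% of the tested genes. The median GC content of the windows was 58.2% for the members and 61% for the tested genes. These shares describe letters in fixed windows, and binding was not measured.

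The depth of the libraries, recovered from the steps between low RPKM values, ran from 6.31 (A3) to 9.07 M reads (C1). The mean recovered reads per library ran from 135 for the least counted member, Rrp15, to 5834 for the most counted, Ncl. In some libraries the transcripts of sorted markers went against the labels. Nr4a1 stood at 57.7 RPKM in A1 against 26.1 and 22.9 in A2 and A3, and at 35.97 in B1 against 73.3 and 64.6 in B2 and B3. It was 23.4 to 28.3 in C, near A2 and A3, and 58.7 to 67.8 in D, no higher than B2, so the GFP labels of B and C as a whole are in doubt. Ly6c1, a gene that encodes Ly6C, was lower in the 3 libraries labelled B (37.1 to 50.2 RPKM) than in the 3 labelled C (59.3 to 67.0), which goes against the Ly6C gates of both labels, and was 58.1 to 72.6 in A and 38.2 to 48.4 in D. C3 held the plasma cell transcript Jchain at 709 RPKM against 0.515 to 6.33 elsewhere, the B cell transcript Cd74 at 209 against 3.12 to 19.7 and the cycling cell transcript Mki67 at 17.05 against 0.55 to 3.27. Summed, 3 plasma cell genes (3 of 8 in the table) reached 837 RPKM there against 18.3 to 24.4 elsewhere, 2 B cell genes (2 of 7) reached 247 against 6.69 to 28.2, and 10 cycling cell genes (10 of 17) 196 against 156 to 194. The defining transcript Cd4 was present in all libraries, at 224 to 250 RPKM (rounded to whole RPKM). Each comparison below is therefore one between libraries as labelled, and is also given without A1, B1 or C3 where that changes it.

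The members were all detected in every library, at levels that varied little. Their mean level over the 12 libraries ran from 6.84 RPKM for Bysl to 342.8 for Npm1, with a median of 25.1 against 12.8 for all genes tested. Npm1, the nucleolar chaperone nucleophosmin, stood above Nop56 (94.97), a core protein of box C/D snoRNPs, the nucleolar protein gene Ncl and the methyltransferase gene Fbl. Myc itself had a mean of 26.5 RPKM, near the middle of its list. In bulk libraries such as these, fewer cells of a type and less RNA per cell cannot be told apart.

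**Figure D1:**
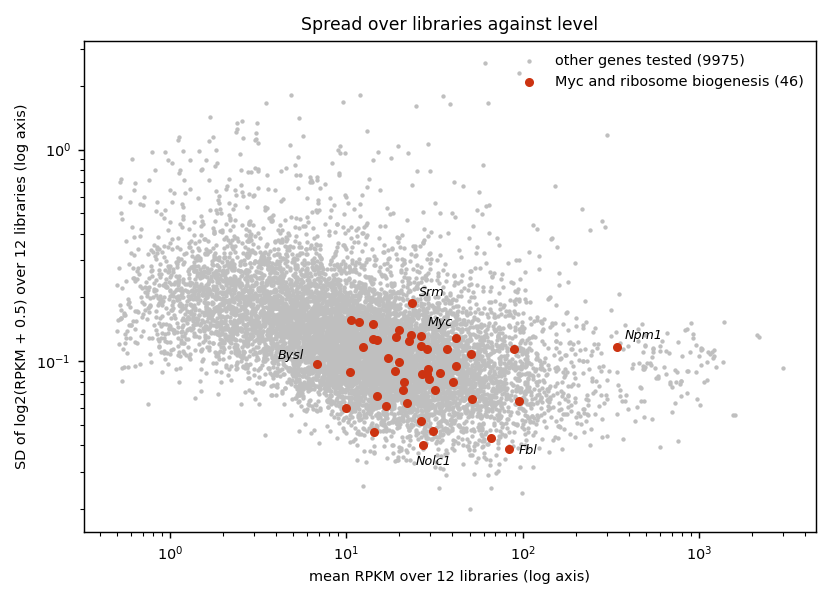
Spread over libraries against level. Each point is a gene, with its mean RPKM over 12 libraries on the x axis and the SD of log2(RPKM + 0.5) over the same libraries on the y axis, both on log axes. The 46 members (red) lie between 0.0386 (Fbl) and 0.188 (Srm), with a median SD of 0.0935 against 0.12 for all genes tested (the other genes grey).

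From the lowest to the highest library the median member moved 1.24-fold, and Grwd1, a chaperone of 60S assembly, moved most, 1.47-fold, both on the scale of RPKM + 0.5. The SD of log2(RPKM + 0.5) over the 12 libraries had a median of 0.0935 over the members and of 0.103 over the 6901 genes within the members' range of mean RPKM. It was under 0.1 for 26 of 46 members (56.5%) and for 46.8% of those 6901 genes. Counting error alone, from the recovered reads, would give a median SD of 0.0593 for the members. Fbl and Nolc1, a chaperone of snoRNP assembly, were the most even members, and Srm, the spermidine synthase gene and the one member that makes polyamines, was the least even.

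Summed over the 46 members, population A reached 1715 ± 26.8 RPKM, B 1626 ± 31.2, C 1679 ± 76.0 and D 1653 ± 4.84 (mean ± SD over 3 mice). As a share of reads these were 0.588%, 0.566%, 0.58% and 0.569%. The spread in C was the widest and C3, at 1592 RPKM, was the lowest single library. C3 was also the lowest library for 11 members and C2 the highest for 10. The part of the plasma cell, B cell and cycling transcripts of C3 in these values was not tested. Npm1 was the largest single part of every sum, with means of 378, 315, 334 and 343 RPKM for populations A to D. Its level is uncertain for the reason given with its values below, so the sums are uncertain too. They were not taken without Npm1.

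**Figure D2:**
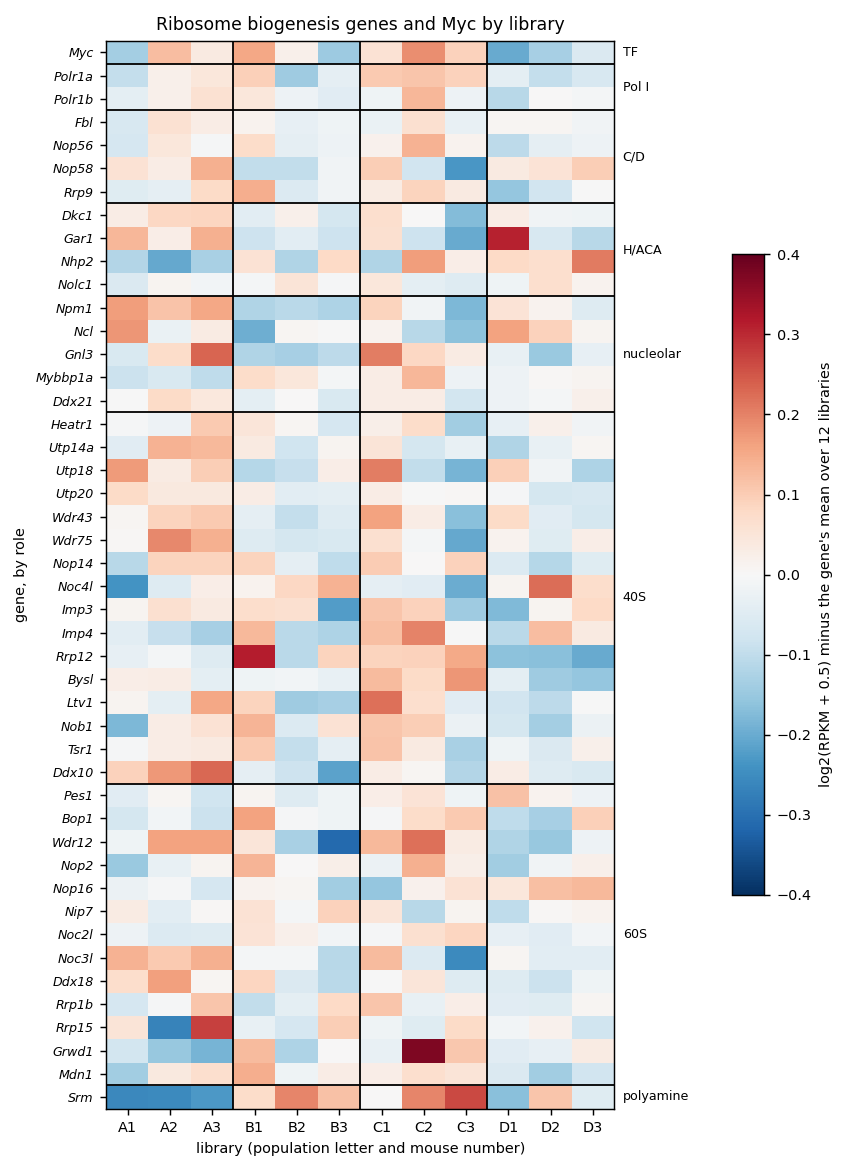
The 46 members (rows, grouped by role) in 12 libraries (columns, population letter and mouse number), coloured by log2(RPKM + 0.5) minus the gene's mean over the libraries. Most rows hold both high and low libraries within a population, while Srm is low in A1, A2 and A3 and Rrp12 is low in D1, D2 and D3.

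Populations were compared in 4 pairs (D with C, B with A, C with B and D with A) by limma on log2(RPKM + 0.5), in 1 fit of all 12 libraries with Benjamini-Hochberg adjustment over the 10021 genes, and a gene passed at an adjusted p under 0.05. D against C sets GFP high against GFP intermediate among cells labelled Ly6C negative, though Nr4a1 in C was near that of A2 and A3 and Ly6c1 also differed without overlap, lower in D. Here 0 of 46 members passed (0.00998% of all genes tested passed). Between these populations the summed level of 5 regulatory T cell genes (5 of 5 listed, Foxp3 and Il2ra among them) ran from 24.9 to 28.5 RPKM in C and from 54.2 to 63.0 in D. The cytotoxic genes Prf1 and Klrd1 (2 of 7 listed) summed to 28.6 to 31.7 in C and 22.0 to 22.7 in D, and Cd8b1, the listed one of 2 CD8 T cell markers, was 12.74 to 15.96 and 10.2 to 11.2. None of these overlapped, and their part in the results was not tested. At an unadjusted p under 0.05 there were 2 members higher in D and 9 lower (11 of 46, against 18.1% of all genes tested). A limma-voom fit on recovered reads gave 0 passing and 9 at an unadjusted p under 0.05. The fitted value was lower in D for 31 of 46 members, against 46.2% of all genes tested, and the median log2 difference was -0.05 over the members and 0.01 over all genes. The fitted log2 differences ran from -0.29 (Rrp12) to 0.20 (Noc4l), and every member's 95% interval lay within 1.5-fold in either direction, as it did for 88.9% of all genes tested.

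Myc was 27.5, 30.1 and 28.1 RPKM in C1 to C3 and 22.9, 24.0 and 25.3 in D1 to D3. All 3 libraries of D lay below all 3 of C, in each mouse as well as between groups. The log2 difference was -0.24 ± 0.08 (SE, 95% interval -0.42 to -0.06), 15.5% lower in D, and it did not pass (limma adjusted p = 0.154). In A it was 24.0, 28.8 and 27.1 RPKM and in B 29.4, 26.8 and 23.8, so those populations overlapped each other and both D and C. Without A1 and B1 the same difference between D and C passed (limma adjusted p = 0.0412), those libraries entering only the shared estimate of spread, and fitted on the 6 libraries alone it did not (0.068).

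Rrp12, a 40S maturation and export factor, had the largest fitted difference between D and C. It was 12.5, 12.5 and 13.04 RPKM in C1 to C3 and 10.4, 10.4 and 10.1 in D1 to D3, again with no overlap. B was wider, with 14.6 in B1 against 10.8 and 12.5, and A lay between D and C at 11.4, 11.6 and 11.3. The log2 difference of D from C was -0.29 ± 0.09 (SE, limma adjusted p = 0.123). It passed in the 6 libraries alone (limma adjusted p = 0.0371), where it was the only member to pass (4.8% of all genes tested passed), and without B1 (0.0318). Without A1 and B1 it passed together with Myc (0.0205, where 7.63% of all genes tested passed).

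Bysl, the bystin gene and another 40S maturation factor, had the smallest p of the members in this pair. It was 7.496, 7.23 and 7.76 RPKM in C1 to C3 and 6.62, 6.13 and 6.08 in D1 to D3. The 2 groups did not overlap, and the log2 difference of -0.24 ± 0.06 (SE) did not pass (limma adjusted p = 0.108). Its 6.95, 6.98 and 6.62 RPKM in A and 6.73, 6.76 and 6.67 in B were also below all 3 libraries of C. The SD of Bysl within populations was 0.0446 on the log2 scale, below the 0.101 that counting error alone would give. Its small p therefore rests on a spread narrower than that of counting.

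Counted over all members, 12 of 46 (26.1%) had all libraries of D below all of C, against 9.89% of all genes tested, and 1, the 40S factor gene Noc4l, had all of D above all of C, against 14.1%. Besides Myc, Rrp12 and Bysl, the 12 were Polr1a, Nop56, Rrp9, Gnl3, Nop14, Utp20, Wdr12, Noc2l and Mdn1. They come from every role group with more than 1 member except the box H/ACA snoRNPs. Without C3 there were 20 lower, against 15.7% of all genes tested, and 2 higher, against 19.5%. By mouse number, 17 of 46 were lower in D in 3 of 3 mice and 4 were higher, against 18.9% and 26.3% of all genes tested.

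**Figure D3:**
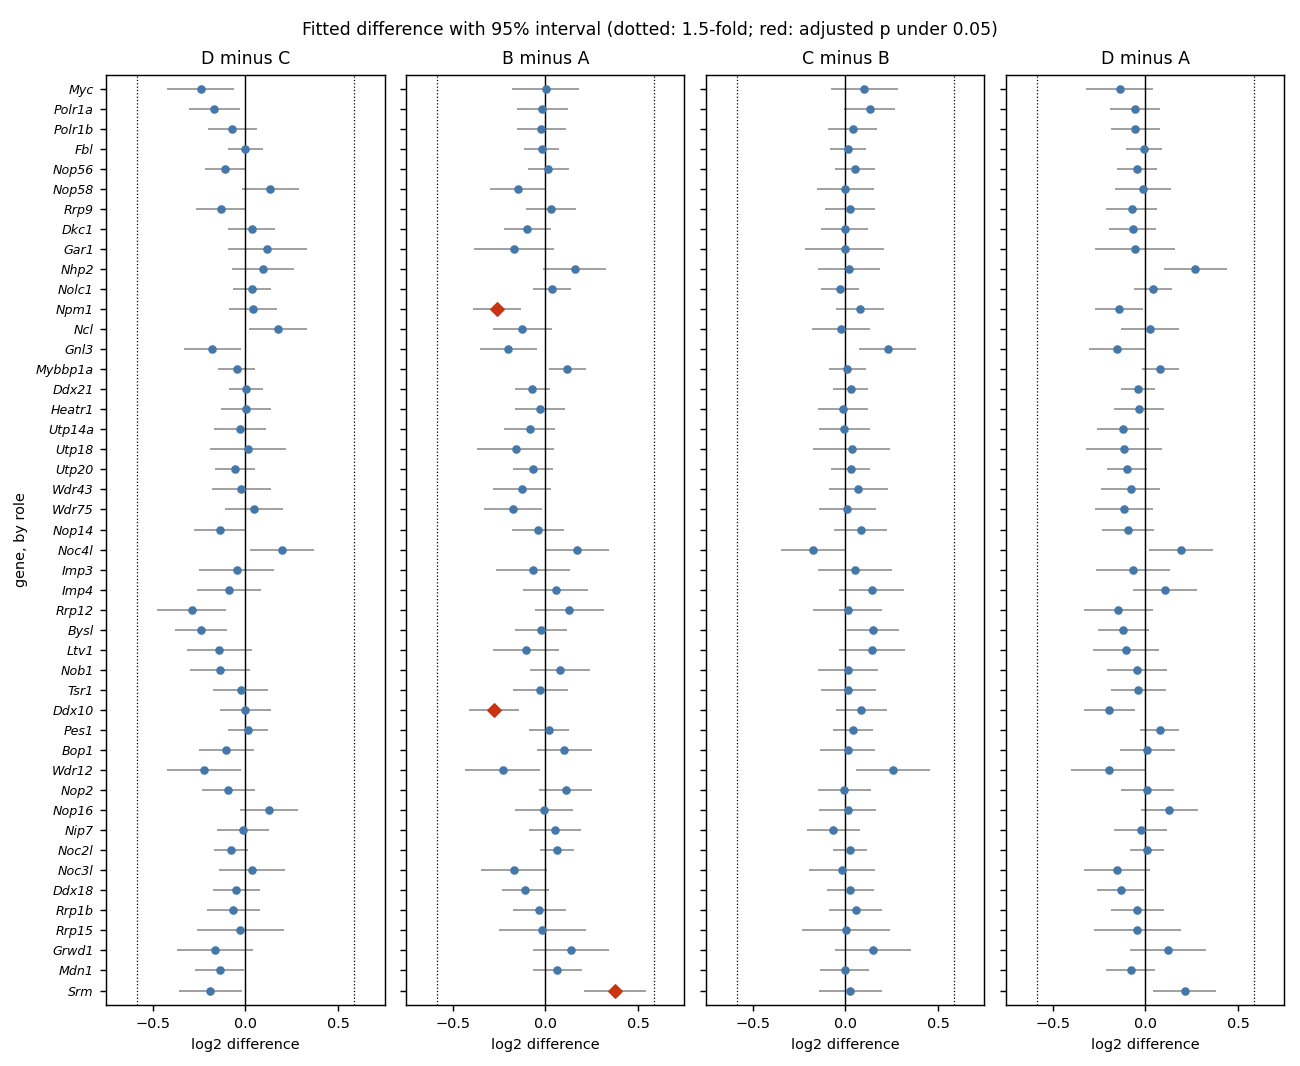
Fitted log2 difference (points) with its 95% interval (lines) for each member in D minus C, B minus A, C minus B and D minus A. Dotted lines mark 1.5-fold; the 3 red diamonds, Srm, Npm1 and Ddx10 in B minus A, passed at an adjusted p under 0.05, and all 46 intervals in each panel lie inside the dotted lines.

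B against A compares an intermediate with a low GFP gate within the Ly6C positive labels. By transcript, Nr4a1 overlapped between the populations (22.9 to 57.7 RPKM in A, 35.97 to 73.3 in B). Ly6c1 did not overlap, and was lower in B (37.1 to 50.2) than in A (58.1 to 72.6). Here 3 of 46 members passed (2.23% of all genes tested passed): Srm rose (0.569% of all genes tested rose), and Npm1 and Ddx10, the gene of a nucleolar RNA helicase, fell (1.66% fell). The same regulatory T cell sum was 63.2 RPKM in A1 against 25.5 and 27.1 in the rest of A, and 28.8 in B1 against 52.5 and 59.4 in the rest of B, and the cytotoxic sum was 31.05 to 33.3 in A and 16.9 to 28.3 in B. Cd8b1 was 13.3 to 14.6 in A and 9.94 to 11.5 in B. Their part was not tested. At an unadjusted p under 0.05 there were 7 members (23.1% of all genes tested were so). The median log2 difference was -0.02 over the members and 0.01 over all genes. Of the members, 28 of 46 were fitted lower in B, against 46.4% of all genes tested.

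Srm was 19.5, 19.6 and 19.9 RPKM in A1 to A3 and 24.7, 26.9 and 25.5 in B1 to B3. A1 to A3 lay within 1 RPKM of each other and below every library of the other populations, with C at 23.5, 26.9 and 28.3 and D at 20.8, 25.3 and 22.7. B exceeded A by a log2 difference of 0.38 ± 0.08 (SE, limma adjusted p = 0.0452). With the mouse number as a block it did not pass (limma adjusted p = 0.0547). For Srm the 2 steps at a labelled Ly6C status, D minus C and B minus A, differed by -0.56 on the log2 scale, and this did not pass either (limma adjusted p = 0.168).

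Npm1 was 384, 370.2 and 381 RPKM in A1 to A3 and 315, 317 and 314 in B1 to B3. A lay above every library of the other populations, B overlapped only C at 363, 338 and 302, and D lay between A and B at 355, 345 and 329.8. On the log2 scale B differed from A by -0.26 ± 0.06 (SE, limma adjusted p = 0.0463, and 0.0671 with the mouse block). Npm1 is known to have many processed pseudogene copies, and the sources used here do not say how reads shared with them were counted. Its level is therefore uncertain.

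Ddx10 was 24.1, 25.6 and 26.6 RPKM in A1 to A3 and 22.0, 21.3 and 19.4 in B1 to B3. All of A lay above all of B, and also above C at 23.05, 22.7 and 20.8 and D at 23.1, 21.8 and 21.6. The log2 difference of B from A was -0.28 ± 0.06 (SE, limma adjusted p = 0.0463, and 0.0687 with the mouse block). None of the 3 calls was large in fold, and none held in every refit. With a trend on GC content and length removed, the limma adjusted p was 0.166 for Srm, 0.33 for Npm1 and 0.389 for Ddx10. No member passed without any 1 of A2, A3, B2, B3, C2, D2 or D3, where 0 to 68 of 10021 genes tested passed.

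Without A1 and B1, whose Nr4a1 stood apart from the rest of their populations, 4 members passed between B and A (10.9% of all genes tested passed). Srm stayed higher in B, and Ddx10 (log2 difference -0.35, limma adjusted p = 0.0137), Gnl3 (-0.27, 0.0423) and Wdr12 (-0.38, 0.0256) were lower. Npm1 was not among them (limma adjusted p = 0.0562). Groups that do not overlap numbered 11 members lower in B and 3 higher with all libraries, against 15.8% and 13.4% of all genes tested. Without A1 and B1 they were 24 and 6, against 29.1% and 33.7%, with 2 libraries a group.

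C against B sets the labelled Ly6C gates apart at the same labelled GFP level. By transcript the pair did not hold that level, since Nr4a1 was lower in every library of C than in any of B, and Ly6c1 ran against the labels. Regulatory (24.9 to 28.5 RPKM in C, 28.8 to 59.4 in B) and cytotoxic sums (28.6 to 31.7 and 16.9 to 28.3) and Cd8b1 (12.74 to 15.96 and 9.94 to 11.5) also did not overlap, and their part was not tested. No member passed, 0 of 46 (0.00998% of all genes tested passed), and 3 stood at an unadjusted p under 0.05, all higher in C (13.4% of all genes tested); limma-voom gave 0 and 4. The 3 were Gnl3, Wdr12 and Bysl. The median absolute log2 difference was 0.0272 over the members against 0.0807 over all genes tested, both the smallest of the 4 comparisons.

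Gnl3, which encodes the nucleolar GTPase nucleostemin, was 38.1, 37.8 and 38.5 RPKM in B1 to B3 and 47.9, 44.0 and 42.5 in C1 to C3. Every library of C was above every library of B. A, at 39.7, 43.7 and 48.9, also lay above B and overlapped C, and D, at 40.7, 37.4 and 40.5, overlapped B and A and lay below C. The log2 difference of C from B was 0.23, the smallest p of the members in this pair, and it did not pass (limma adjusted p = 0.285).

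Wdr12, which works with Pes1 and Bop1 in the PeBoW complex of 60S maturation, was 10.97, 9.64 and 8.43 RPKM in B1 to B3 and 11.6, 12.4 and 10.8 in C1 to C3. B1 overlapped C, and A, at 10.4, 11.9 and 11.9, and D, at 9.70, 9.49 and 10.4, lay within the same range. The log2 difference of 0.26 did not pass (limma adjusted p = 0.288), and without A1 and B1 it did (0.35, adjusted p = 0.0296), where 7.74% of all genes tested passed. Its partners Pes1 and Bop1 were fitted at 0.04 and 0.01 between C and B.

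Between C and B the groups did not overlap for 2 members higher in C, Bysl and Gnl3, against 6.31% of all genes tested, and for 1 lower, Noc4l, against 8.83%. Myc was fitted 0.10 higher in C (limma adjusted p = 0.629), with C and B overlapping. The counts changed with the libraries that stand apart: without A1, B1 and C3, 4 members passed (Gnl3, Imp4, Ltv1 and Wdr12, all higher in C, where 8.71% of all genes tested passed). In that setting, with 2 libraries a group, 24 members (52.2%) were higher in C with no overlap, against 24.1% of all genes tested. Lower with no overlap was 1 member, against 26.6% of all genes tested.

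D against A sets the labelled ends of the sort apart, though Nr4a1 in A1 (57.7 RPKM) was near that of D (58.7 to 67.8). The regulatory T cell sum was 63.2 RPKM in A1 and 25.5 and 27.1 in the rest of A, against 54.2 to 63.0 in D. The cytotoxic sum (31.05 to 33.3 RPKM in A, 22.0 to 22.7 in D) and Cd8b1 (13.3 to 14.6 and 10.2 to 11.2) did not overlap between A and D. The part of these transcripts was not tested. No member passed, 0 of 46 (0.00998% of all genes tested passed), and 6 stood at an unadjusted p under 0.05, 3 in each direction (19% of all genes tested); limma-voom gave 0 and 8. The fitted value was lower in D for 33 of 46 members, against 46.4% of all genes tested. The median log2 difference was -0.05 over the members and 0.01 over all genes. Myc was fitted at -0.14 (limma adjusted p = 0.379), with A1 inside the range of D.

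Nhp2, a core protein of box H/ACA snoRNPs, had the smallest p in this pair. It was 21.4, 20.1 and 21.2 RPKM in A1 to A3 and 24.6, 24.4 and 26.9 in D1 to D3. D lay above A throughout, and B (24.2, 21.3 and 24.6) and C (21.3, 26.1 and 23.7) spread over both. The log2 difference was 0.27 ± 0.08 (SE, limma adjusted p = 0.154). The other members with smallest p were those that passed in B against A: Srm (0.21 higher in D, limma adjusted p = 0.194) and Ddx10 (-0.19, adjusted p = 0.172). The partners of Nhp2 in the same particle were not fitted like it: Dkc1, the pseudouridine synthase, was fitted at -0.07, Gar1 at -0.06 and the assembly chaperone Nolc1 at 0.04.

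Between D and A, 8 members were lower with no overlap (11.7% of all genes tested) and 5 higher (14.1%). The 8 were Bysl, Ddx10, Ddx18, Noc3l, Npm1, Rrp12, Utp20 and Wdr12, and the 5 were Grwd1, Mybbp1a, Nhp2, Nop16 and Srm. Without A1 and B1 these were 23 and 6, against 20.1% and 25.9% of all genes tested, and 0 members passed (8.84% of all genes tested passed). Comparisons that share a population share its libraries, so a gene that is low in D can appear in both D against C and D against A.

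**Figure D4:**
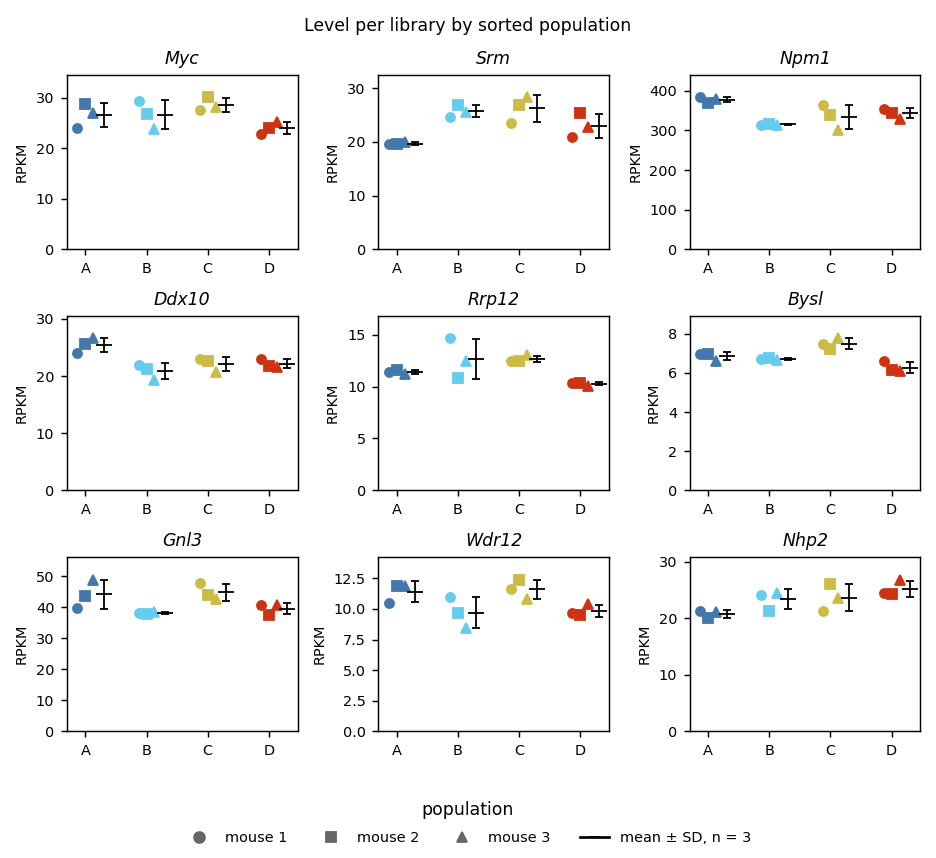
RPKM of 9 members in each library (points, shaped by mouse) with the mean ± SD of each population (n = 3), populations A to D on the x axis and each y axis starting at 0. Srm lies at 19.5 to 19.9 RPKM in A and at 24.7 to 26.9 in B, and Myc lies at 22.9 to 25.3 RPKM in D and at 27.5 to 30.1 in C.

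A single F test per gene over the 4 populations called 0 of 46 members (0.00998% of all genes tested passed), with 9 at an unadjusted p under 0.05 (21.7% of all genes tested) and 7 by limma-voom, which also called 0. Srm had the smallest value (limma adjusted p = 0.115). Without A1 and B1 the F test called 3 members, Srm, Wdr12 and Ddx10 (9.63% of all genes tested passed).

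Among the members by role, the RNA polymerase I subunits Polr1a, the largest subunit, and Polr1b had a median log2 difference of -0.12 between D and C. Polr1a was 20.4, 20.5 and 20.2 RPKM in C1 to C3 and 18.4, 17.7 and 18.1 in D1 to D3, against 17.7 to 19.6 in A and 17.1 to 20.2 in B. D lay below C with no overlap, at -0.17 on the log2 scale, which missed the threshold (limma adjusted p = 0.187). Polr1b, its partner in the catalytic core, was fitted at -0.07.

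Among the box C/D proteins, Nop56 was 90.6 to 97.9 RPKM in A, 92.4 to 99.97 in B, 95.8 to 104 in C and 88.2 to 93.5 in D. Only C and D of these ranges did not overlap, and the log2 difference of D from C was -0.11 (limma adjusted p = 0.272). Fbl, its methyltransferase partner, stood at 84.4 ± 3.78, 83.1 ± 1.34, 84.0 ± 3.22 and 83.9 ± 0.749 RPKM in A to D (mean ± SD over 3 mice), the most even of all members. Nop58, a further core protein, and the U3 protein gene Rrp9 were fitted at 0.13 and -0.13 between D and C. Among the box H/ACA proteins, Dkc1 was 32.4 to 33.8 RPKM in A, 30.2 to 32.2 in B, 28.1 to 33.3 in C and 31.4 to 32.5 in D, with A above B and all other pairs overlapping.

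The nucleolar phosphoproteins and chaperones held the most abundant member, Npm1. Ncl, nucleolin, stood at 93.3 ± 6.9 and 85.6 ± 6.63 RPKM in A and B and at 84.1 ± 5.45 and 94.998 ± 4.94 in C and D (mean ± SD over 3 mice), and was fitted at 0.17 in D against C, the opposite side from Myc (limma adjusted p = 0.227). Ddx21, a nucleolar RNA helicase, was fitted within 0.07 of 0 in all 4 comparisons. Mybbp1a, which encodes a nucleolar Myb-binding protein, was above A in every library of B and of D, by 0.12 and 0.08 on the log2 scale, and missed the threshold in both.

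The 16 genes of the small subunit processome and 40S maturation had a median log2 difference of -0.04 in D against C and of -0.05 in B against A. Wdr43, the most abundant of them, was 42.1 to 45.1 RPKM in A, 39.2 to 40.9 in B, 37.2 to 47.0 in C and 39.9 to 44.2 in D, with A above B. The 13 genes of 60S maturation had medians of -0.07 and 0.02. Ddx18, the most abundant of these, was 40.5 to 45.1 RPKM in A, 37.3 to 42.8 in B, 38.8 to 41.6 in C and 37.9 to 39.8 in D, with D below A and the other pairs overlapping.

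The 11 members with CACGTG in the windows shown above can be set beside the 29 with a window and no CACGTG. Between D and C their median log2 difference was -0.06 against -0.03 for those without, and between B and A it was 0.02 against -0.03. In B against A the groups did not overlap for Utp18, Utp20 and Wdr43, lower in B (15.8% of all genes tested). Mybbp1a was higher in B with no overlap (13.4% of all genes tested). In D against C they did not overlap for Utp20 and Mdn1, lower in D (9.89% of all genes tested). Of the 3 members that passed in B against A, only Ddx10 had a window in the sequence set, and it held no CACGTG and 1 CCGGAAG.

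Other genes of the pathway, 182 from 7 lists outside the members were read from the same fits. Of the 182, 0 passed in D against C, C against B and D against A, and in B against A 0 were higher and 2 lower (2.23% of all genes tested passed there). Those 2 were Taf1d, a subunit of the SL1 factor that starts RNA polymerase I transcription, and Brix1, a 60S assembly factor. Taf1d was 28.4, 32.1 and 34.1 RPKM in A1 to A3 and 21.6, 22.6 and 24.7 in B1 to B3, with no overlap (log2 difference -0.45 ± 0.09, SE, limma adjusted p = 0.0452). Brix1 was 17.2, 18.7 and 19.1 in A and 14.1, 14.6 and 15.7 in B (-0.30 ± 0.07, limma adjusted p = 0.0463). With the mouse block neither passed (0.0686 for Taf1d and 0.0778 for Brix1), nor with the GC and length trend removed (0.218 and 0.394). Neither passed without any 1 of A2, A3, B1, B2, B3, C2 or D2 (0.0565 to 0.151 for Taf1d and 0.0585 to 0.151 for Brix1), and Brix1 also missed without D1 (0.0547) or D3 (0.0602).

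Per list, the medians in D against C were -0.02 for 14 genes of RNA polymerase I and rDNA transcription, -0.02 for 48 of the small subunit, -0.03 for 48 of the large subunit, 0.015 for 10 of snoRNP assembly and -0.01 for 24 of the pre-rRNA nucleases. The 12 partners and antagonists of Myc had a median of -0.01 and 26 other genes known as Myc targets had 0.06. Mxd1, which encodes a partner of Max that opposes Myc at the same sites, was 7.71, 6.88 and 7.62 RPKM in C1 to C3 and 12.1, 11.1 and 12.4 in D1 to D3. D lay well above C, the log2 difference was 0.65 ± 0.18 (SE), and it did not pass in the fit of 12 libraries (limma adjusted p = 0.111). In A it was 9.71, 8.06 and 6.94 and in B 7.32, 12.8 and 13.2, so A1 and B1 stood apart from A2, A3, B2 and B3 here as for Nr4a1.

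Mxd1 passed in D against C in the 6 libraries alone (limma adjusted p = 0.00255) and without A1 and B1 (0.000482). Pim1, a kinase gene whose product works with Myc, was 61.8, 48.0 and 48.1 RPKM in B1 to B3 and 70.9, 62.8 and 97.2 in C1 to C3, with the highest value in C3, and did not pass (log2 difference 0.53 ± 0.17, SE, limma adjusted p = 0.287); without A1 and B1 it passed (0.0186). Sms, the gene of the synthase that turns the product of Srm into spermine, was 12.5, 11.1 and 11.1 RPKM in C and 14.7, 13.6 and 13.5 in D, the opposite direction from Srm (0.26 ± 0.07, SE, adjusted p = 0.106). Without A1 and B1, 4 of the 182 passed as higher and 1 as lower in D against C, and 4 and 7 in B against A, where 7.63% and 10.9% of all genes tested passed. In C against B these were 1 and 2 and in D against A 5 and 3, where 7.74% and 8.84% of all genes tested passed.

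Where a list held no gene that passed in the 12-library limma fit, the gene of smallest p is given for that comparison. In D against C they were Ubtf, the activator of RNA polymerase I (log2 difference 0.13, adjusted p = 0.277), the box C/D protein gene Snu13 (0.23, 0.110), Ppan (-0.16, 0.187), Nufip1 (-0.19, 0.177) and the exosome cofactor gene C1d (0.31, 0.110). In B against A they were the 40S factor gene Krr1 (-0.20, 0.103), Pih1d1 of snoRNP assembly (0.23, 0.116), the RNase MRP subunit gene Rpp30 (-0.33, 0.108), Mlxip, a relative of the Myc network (0.17, 0.0549), and the nucleotide synthesis gene Prps2 (-0.25, 0.107). In C against B they included Taf1d (0.22, 0.334), Tbl3 (-0.22, 0.285), Las1l (0.16, 0.285), Naf1 (-0.20, 0.478), C1d (-0.28, 0.285) and Ctps (0.17, 0.379). In D against A they included Taf1d (-0.34, 0.151), Fcf1 (-0.22, 0.208), Brix1 (-0.22, adjusted p 0.1596), Pih1d1 (0.18, 0.253), Rpp30 (-0.29, 0.198), Mxd1 (0.51, 0.190) and Phb (0.19, 0.154). In that pair Taf1d (limma adjusted p = 0.0228), Brix1 (0.0455) and Mxd1 (0.00157) passed without A1 and B1.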

How the data were processed

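RNA from 12 libraries (4 populations from each of 3 mice) was read as cDNA made with the SMART-seq v4 kit and NexteraXT libraries, per the labels' protocols. The authors deposited 1 table of RPKM values per gene and library, with a gene length. The submitters' processing notes name STAR and the builds mm9 and mm10, with no role. For the counter, its use of strand and the annotation, nothing is given in the sources used here. RPKM of genes with close copies is therefore uncertain.

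RPKM is not a count, so limma 3.58.1 in R 4.3.3 was run on log2(RPKM + 0.5) with a trend of variance on level, keeping genes whose mean reached 0.5 RPKM. The fit used all 12 libraries and 4 population means, with adjustment over 10021 genes. A fold change on this scale understates the change of low genes. From the RPKM steps, 100% of the low values looked at came out whole to 0.1 read. These gave the depth (6.31 to 9.07 M reads) and a limma-voom alternative. The fit was tested on simulated data. It found few of the genes given a log2 change of 0.25 there, so changes of that size can be missed.

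The members, lists and tests were chosen with earlier results of these data known. Values per library are given for Myc, for members that passed, for the 3 of smallest p per comparison otherwise, and, as ranges where no result turns on them, for the most abundant member of each role. Noc4l, Pes1, Bop1, Gar1, Polr1b, Ncl and others named for their role or in counts were added after their values were seen. From each other list, genes that passed are named, and otherwise the gene of smallest p. No named member held CACGTG before its start, which was the rule set for printing promoters, so all 11 sites are shown.

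The labels give the mouse of each library, so by label libraries of 1 number come from 1 animal. The red blood cell genes Hba-a2 and Hbb-bs (2 of 5 listed) did not follow these numbers. Their sum was 10.0 RPKM in A1, 22.4 in B1, 8.13 in C2 and 22.0 in D2, against 133 to 176 in the other libraries. Whether the numbers hold was not tested, and counts by mouse and fits with the mouse block rest on them. Deviations from the population means of libraries with 1 number had a mean correlation of -0.072 over 18 pairs, against 0.0316 over 36 pairs of different number and population. The 3 deviations of a population sum to 0, so the second mean largely follows from the first and is no independent reference. Alternatives were another pseudocount (0.1 or 1), no filter or at least 5 RPKM, median or quantile scaling, the 6 libraries compared alone, the mouse as a block and each library left out. Added after seeing the data were fits without A1 and B1 or A1, B1 and C3, without each library of the populations not compared, with a GC and length trend removed, and with voom. Figures were drawn with matplotlib 3.10.9.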

Additional observations from a re-analysis of the deposited data

How the results depend on the processing

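In D against C, 0 members passed in the 12-library fit and 1 in the 6 libraries alone (4.8% of all genes tested). With 1 library left out 0 to 1 passed (1 without B1, where 398 of 10021 genes tested passed). Both without A1 and B1 and without A1, B1 and C3, 2 passed (7.63% and 8.39% of all genes tested). In B against A, 3 passed, 0 with the replicate block (0.02% of all genes tested passed) and 0 with the GC and length trend removed (0.0305%). Without A1, B1 and C3, 6 passed (16.3%). In the 6 libraries alone 2 passed (380 of 10021 genes tested), and Ddx10 did not (limma adjusted p = 0.0575). Quantile normalization gave 2 (231 genes), with Npm1 lost. With 1 library left out 0 to 3 passed: 1 without A1 (237 genes) or D1 (166), 2 without B1 (222) and 3 without C1 or C3 (461 each). In C against B, 1 passed without A1 and B1 and 4 without A1, B1 and C3 (8.71%), and in D against A 2 passed without A1, B1 and C3 (13.5%). The F test called 0 to 1 with 1 library left out (1 without B1 or C1), 3 without A1 and B1 and 5 without A1, B1 and C3 (13.1%). The cause was not tested, other than that fits with fewer libraries test the same genes on fewer samples. The log2 difference of Myc in B against A, 0.00 in the 12-library fit, turned negative with quantile normalization (-0.0038), with voom on recovered reads (-0.0018), with the GC and length trend removed (-0.0869), without A1 and B1 (-0.14), without A1, B1 and C3 (-0.14) and without A1, B1 or B2 alone (-0.0698, -0.0707 and -0.0034, in a range of -0.0707 to 0.0799 over single libraries left out). Bysl, Ddx10, Gnl3, Nhp2, Npm1, Rrp12, Srm and Wdr12 kept direction where they passed or were among the 3 of smallest p in the 12-library fit. So did Myc in its other comparisons. Other members were not counted in this way. The replicate block changed no call outside B against A. The number of reads limits members of low level: counting error gives a median SD of 0.0593 on the log2 scale.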
